A study of Mus musculus with 6 samples.

Results

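The genes of retinoic acid synthesis and degradation were followed in the mandibular arch, the lower jaw portion of pharyngeal arch 1, of mouse embryos lacking Tbx1. The 10 genes were Rdh10, Aldh1a1, Aldh1a2, Aldh1a3, Dhrs3, Crabp1, Crabp2, Cyp26a1, Cyp26b1 and Cyp26c1, chosen by name as the enzymes that make and remove retinoic acid and the proteins that bind it in the cytoplasm. All 10 were measured, out of 19938 genes, each by 1 probe set that the platform annotation assigns to that gene alone. Arches of Tbx1-/- embryos (Tbx1 null, 3 arrays) were compared with arches of Tbx1+/+ embryos (wild type, 3 arrays). All embryos were of strain C57BL/6 at embryonic day 9.5 (E9.5), and no other allele or treatment is named for either genotype. Tissue of 3 embryos per genotype was pooled, and whether each array had a pool of its own is not stated. The p-values therefore rest on differences between arrays of 1 genotype, which may be partly or wholly technical. If each genotype had 1 pool, a difference between genotypes could not be told apart from one between pools.

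Retinoic acid is a small signalling molecule made from vitamin A. Retinol is first oxidised to retinaldehyde, mainly by RDH10, and retinaldehyde is oxidised to retinoic acid by the enzymes ALDH1A1, ALDH1A2 and ALDH1A3. DHRS3 turns retinaldehyde back into retinol, and the CYP26 enzymes break retinoic acid down, so that sources and sinks together set where the signal acts. In the pharynx, Aldh1a2 is known as the source in mesoderm of the posterior arches, and CYP26 enzymes protect more anterior tissue. Lower Cyp26 expression has been described in mouse embryos lacking Tbx1, which makes these genes of interest in the arch measured here.

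Tbx1 (probe set 10438347) had log2 levels of 9.48, 9.39 and 9.63 on the Tbx1 null arrays, against 11.64, 11.36 and 11.31 on the wild-type arrays. The difference was -1.94 (SE 0.10, limma adjusted p = 0.000684). The 7 markers of mandibular mesenchyme, such as Prrx2 and Dlx5, had log2 levels between 10.4 and 13.0 on all arrays, above the array medians of 7.98 to 8.04. In all, 32 of 19938 genes (0.16%) passed a limma adjusted p of 0.05, 17 higher and 15 lower in Tbx1 null (12 and 22 after another quantile normalisation, 16 and 30 after centring on the median). Leaving out Tbx1 null replicate 1, 2 or 3 gave 3, 3 or 10 called genes, and leaving out wild type replicate 1, 2 or 3 gave 13, 3 or 20. Of 11 lists of tissue markers, 8 had a mean log2 level that did not overlap between the genotypes, 4 with Tbx1 null above and 4 with it below. How often the means of other gene lists do not overlap was not computed, and among single genes 15.4% did not overlap. The widest gap was that of 4 core mesoderm markers, with list means of 8.06 to 8.20 in Tbx1 null, against 8.79 to 8.89 in wild type, and among them Lhx2 fell by 1.56 (limma adjusted p = 0.000784). The 5 heart markers had list means of 9.70 to 10.20 in Tbx1 null, against 9.11 to 9.43 in wild type, and 1 of them, Tbx20, rose (change 0.68, limma adjusted p = 0.0422). Actc1 and Myl7 had larger changes, 1.40 and 0.84, that did not pass (limma adjusted p = 0.163 and 0.148). The changes of Isl1 and Nkx2-5 were 0.36 and 0.16. Lhx2 passed with each array left out, while Tbx20 did not pass with any single array left out (limma adjusted p = 0.057 to 0.17). No marker passed in the other lists. Mandibular mesenchyme (12.12 to 12.20, against 11.86 to 12.01 in wild type) and surface ectoderm (10.82 to 10.91, against 10.68 to 10.75) were also above wild type in their list means, with 6 of 7 and 4 of 5 changes above 0. The 5 Hox genes of the second arch and hindbrain had list means of 7.94 to 8.11 in Tbx1 null, against 7.62 to 7.66 in wild type, with Hoxa2 and Hoxb2 not overlapping and Hoxa3, Hoxb1 and Hoxb3 overlapping between the genotypes. Primitive blood (9.84 to 9.91, against 10.14 to 10.26), neural tube and ganglia (8.05 to 8.14, against 8.22 to 8.61) and somites (mean 7.90, against 8.06) had list means below wild type, with 4 of 4, 4 of 5 and 2 of 4 changes below 0. Of all genes 46.5% had a change above 0. The part of these tissues in the values below was not tested, and in such bulk tissue fewer cells of a type and less RNA per cell cannot be told apart.

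None of the 10 retinoic acid genes passed the threshold over all genes. Their limma adjusted p-values ran from 0.358 for Rdh10 to 0.978 for Aldh1a1, with 5 genes above 0 and 5 below. Before adjustment 1 of 10, Rdh10, had a limma p under 0.05, higher in Tbx1 null. Of all genes 9.44% reached that level, 5.5% higher and 3.94% lower in Tbx1 null (1097 and 786 genes). This balance turned to 899 higher and 1419 lower after another quantile normalisation, and to 693 and 1386 after centring on the median. The arrays of the genotypes did not overlap for 2 of 10 genes, Rdh10 and Cyp26b1, both with Tbx1 null above. Among all genes 15.4% did not overlap, 8.36% with Tbx1 null above and 7.06% with it below. The median log2 change of the 10 genes was -0.02, against -0.01 over all genes, and their median absolute change was 0.10, against 0.05. Their median SE was also larger, 0.075, against 0.0579 over all genes. The intervals below give the sizes of change that these 6 arrays leave possible for each gene. They would not cover differences between pools if each genotype had 1 pool.

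**Figure D1:**
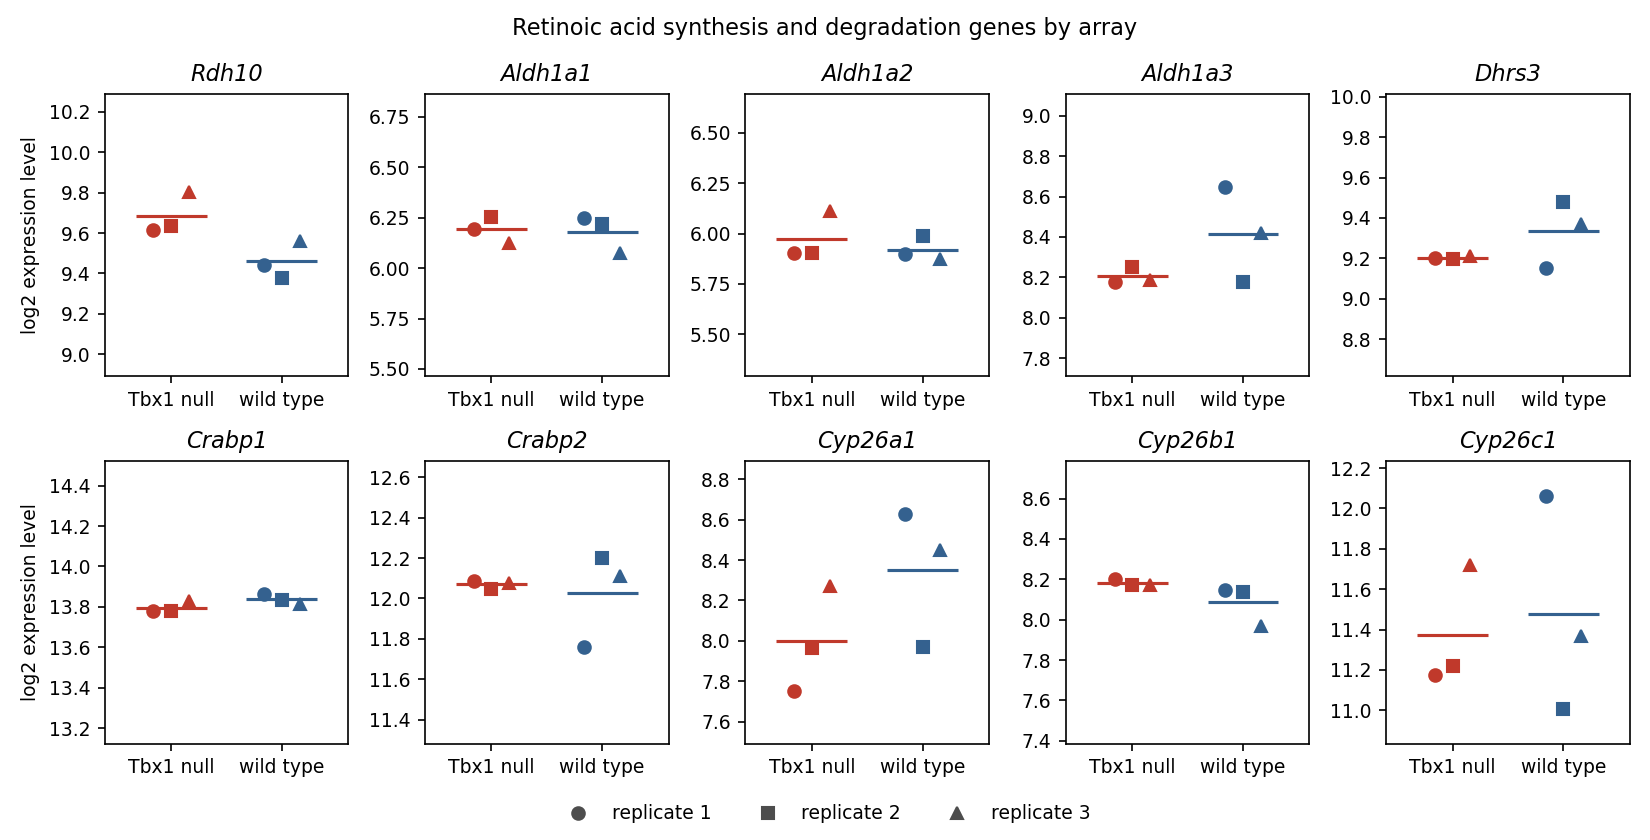
Log2 expression level of the 10 retinoic acid genes on each array, Tbx1 null left (red) and wild type right (blue), with symbols for replicates 1 to 3 and a line at each genotype's mean. Every panel spans the same number of log2 units, and the points of Cyp26a1 and Cyp26c1 are the most spread within a genotype.

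**Figure D2:**
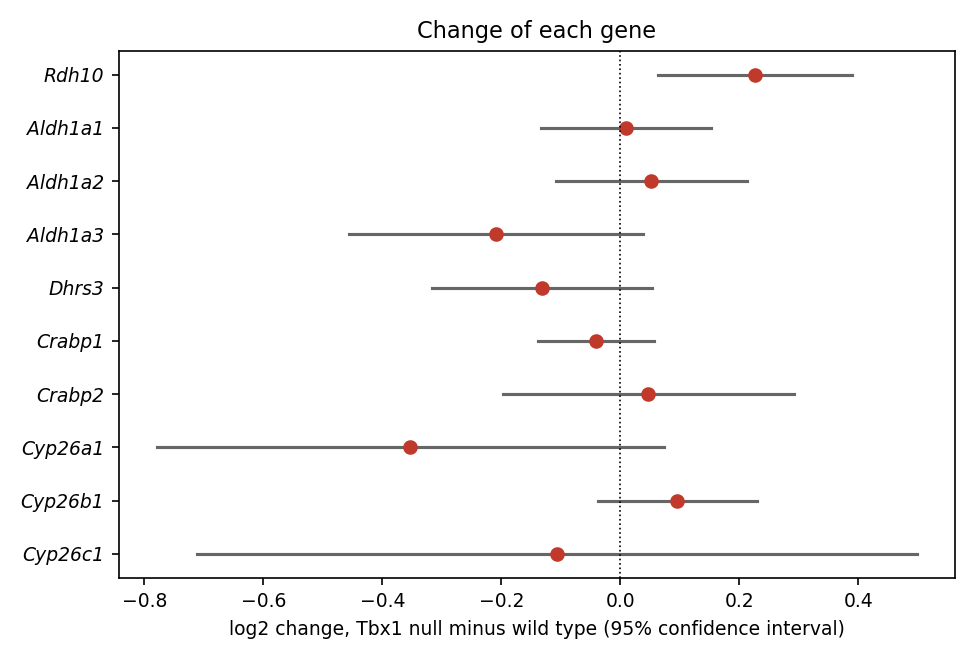
Log2 change of each gene, Tbx1 null minus wild type (points), with its 95% confidence interval from limma (lines). The interval of Rdh10, 0.06 to 0.39, lies above 0 before adjustment, and those of Cyp26a1 and Cyp26c1 are the widest.

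Among the synthesis genes, Rdh10 had the only interval that left out 0, and the values of Aldh1a1 and Aldh1a2 lay close together in the genotypes. Rdh10 encodes the retinol dehydrogenase that makes retinaldehyde, the first step of the pathway. Its probe set (10344952, Entrez gene 98711) had log2 levels of 9.62, 9.64 and 9.81 on the Tbx1 null arrays, against 9.44, 9.38 and 9.56 on the wild-type arrays. All Tbx1 null arrays were higher than all wild-type arrays, by a gap of 0.055 at the nearest pair. The means were 9.69 ± 0.10 in Tbx1 null and 9.46 ± 0.09 in wild type (SD, n = 3 each), a 1.17-fold difference (log2 change 0.23, 95% confidence interval 0.06 to 0.39, unadjusted p = 0.0129, limma adjusted p = 0.358). The arrays also did not overlap after another quantile normalisation (0.19) or after centring on the median (0.20). With 1 array left out the change lay between 0.17 and 0.28. Of all genes, 96.1% had a smaller absolute change than Rdh10.

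Aldh1a2, the main retinoic acid synthase of the early embryo, was measured by probe set 10586865. Its log2 levels were 5.90, 5.90 and 6.11 in Tbx1 null, against 5.90, 5.99 and 5.87 in wild type. The genotypes overlapped, with Tbx1 null replicate 3 above the other 5 arrays. The change was 0.05 (95% confidence interval -0.11 to 0.21, limma adjusted p = 0.878), and it was -0.02 without Tbx1 null replicate 3.

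Aldh1a1 (probe set 10461979), a related synthase best known from the eye, had log2 levels of 6.19, 6.25 and 6.13 in Tbx1 null, against 6.25, 6.22 and 6.07 in wild type. The arrays of the genotypes were interleaved. The change was 0.01 (95% confidence interval -0.13 to 0.15), while leaving out Tbx1 null replicate 2 gave -0.02 and leaving out wild type replicate 3 gave -0.04. Both probe sets were below the first quartile of mean levels over all genes, 6.81. No background probes were given, so whether Aldh1a1 and Aldh1a2 were above background could not be judged, and a change at such levels tends to be understated.

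Aldh1a3, the third synthase, which acts in the eye and nasal region, was measured by probe set 10564417. It had log2 levels of 8.18, 8.25 and 8.19 in Tbx1 null, against 8.64, 8.18 and 8.42 in wild type. The Tbx1 null arrays lay close together at the low end of the wild-type range, and wild type replicate 2 lay among them. The change was -0.21 (95% confidence interval -0.46 to 0.04, limma adjusted p = 0.614). Leaving out wild type replicate 1 gave -0.09, and leaving out wild type replicate 2 gave -0.33. The SD was 0.042 in Tbx1 null and 0.23 in wild type.

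Dhrs3 encodes the reductase that returns retinaldehyde to retinol and is itself induced by retinoic acid in embryos. Probe set 10510129 (Entrez gene 20148) gave log2 levels of 9.20, 9.20 and 9.21 in Tbx1 null, against 9.15, 9.48 and 9.37 in wild type. Wild type replicates 2 and 3 were above all Tbx1 null arrays, and wild type replicate 1 was below them. The change was -0.13 (95% confidence interval -0.32 to 0.05, limma adjusted p = 0.678). Without wild type replicate 1 it was -0.22 (limma adjusted p = 0.272), and without wild type replicate 2 it was -0.06.

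The binding proteins gave the smallest spread and one of the larger ones. Crabp1 encodes a cytoplasmic retinoic acid binding protein carried by migrating cranial neural crest. Probe set 10585438 had log2 levels of 13.78, 13.78 and 13.83 in Tbx1 null, against 13.86, 13.83 and 13.81 in wild type. The change was -0.04 (95% confidence interval -0.14 to 0.06), or 0.908-fold to 1.04-fold of wild type. A level this far up the scale of the array can understate changes, as 99.8% of genes had a lower mean level. After centring on the median the Crabp1 arrays of the genotypes no longer overlapped (change -0.07).

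Crabp2 encodes the related protein that carries retinoic acid to its nuclear receptors. Probe set 10493108 gave 12.09, 12.05 and 12.08 in Tbx1 null, against 11.76, 12.20 and 12.11 in wild type. The Tbx1 null arrays lay between wild type replicate 1 and the other two wild-type arrays. The change was 0.05 (95% confidence interval -0.20 to 0.29), and it was -0.09 without wild type replicate 1.

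None of the 3 genes of the degrading enzymes passed the test, and the intervals of their changes overlap. CYP26A1, CYP26B1 and CYP26C1 are cytochrome P450 enzymes that oxidise retinoic acid. Cyp26a1 is known as a direct target of retinoic acid, and Cyp26c1 as a gene of the head and first-arch mesenchyme. The starts of Cyp26c1 and Cyp26a1 lie 12128 bases apart on the + strand of chromosome 19, while Cyp26b1 is on chromosome 6. The 250 bases before the annotated start of each are shown because the members of this family differ in whether these bases hold retinoic acid receptor half-sites. They are from RefSeq, build GRCm38.p6, at chr19:37697558-37697807 (Cyp26a1, + strand), chr6:84593811-84594060 (Cyp26b1, - strand) and chr19:37685430-37685679 (Cyp26c1, + strand). Capitals mark retinoic acid receptor half-sites and TATAAA.
Cyp26a1: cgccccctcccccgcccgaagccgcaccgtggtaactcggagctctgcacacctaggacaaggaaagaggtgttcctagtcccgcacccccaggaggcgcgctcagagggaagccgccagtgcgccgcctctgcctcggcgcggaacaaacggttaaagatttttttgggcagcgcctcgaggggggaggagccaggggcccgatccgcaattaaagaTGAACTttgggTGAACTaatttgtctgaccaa
Cyp26b1: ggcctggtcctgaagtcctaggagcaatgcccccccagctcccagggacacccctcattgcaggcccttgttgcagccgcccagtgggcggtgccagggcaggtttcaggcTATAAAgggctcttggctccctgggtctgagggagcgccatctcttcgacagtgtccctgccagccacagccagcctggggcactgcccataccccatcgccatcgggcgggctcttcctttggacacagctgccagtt
Cyp26c1: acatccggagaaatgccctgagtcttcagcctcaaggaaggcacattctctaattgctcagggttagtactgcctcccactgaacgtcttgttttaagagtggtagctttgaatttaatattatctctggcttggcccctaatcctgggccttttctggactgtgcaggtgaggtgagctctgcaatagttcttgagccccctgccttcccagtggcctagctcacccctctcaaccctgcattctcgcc

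In these windows the receptor half-site AGGTCA with its variants AGTTCA, then GGGTCA, as well as GGTTCA, the T-box half-site GGTGTGA and TATAAA were searched on both strands. Cyp26a1 held AGTTCA at 2 places on the reverse strand, 32 to 27 and 21 to 16 bases before the start. Together they read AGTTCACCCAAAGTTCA, a direct repeat with 5 bases between its half-sites (DR5). Of 32851 promoter windows of the same length, 29 (0.0883%) held a DR5 of these half-sites, and 38.6% held any of the half-sites. The Cyp26b1 window held TATAAA, 139 to 134 bases before the start, as 12.4% of all windows did. The Cyp26c1 window held none of the motifs searched. In all, 7 of the 10 genes had promoters in the table, with 10 windows. Besides Cyp26a1, only a window of Aldh1a1 held a half-site (GGGTCA), and another window of Aldh1a1 held GGTGTGA, as 3.33% of all windows did. A match describes letters and does not show binding.

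Cyp26a1 had the most negative change of the 10 genes and a wide interval. Probe set 10462853 (Entrez gene 13082) gave log2 levels of 7.75, 7.97 and 8.27 in Tbx1 null, against 8.63, 7.97 and 8.45 in wild type. Wild type replicates 1 and 3 were above all Tbx1 null arrays, and wild type replicate 2 lay at the level of Tbx1 null replicate 2. The SD was 0.26 in Tbx1 null and 0.34 in wild type (n = 3 each). The change was -0.35 (SE 0.18, limma adjusted p = 0.619), with a 95% confidence interval of -0.78 to 0.07, or 0.583-fold to 1.05-fold of wild type. Leaving out Tbx1 null replicate 1 gave -0.23, leaving out wild type replicate 1 gave -0.21 and leaving out wild type replicate 2 gave -0.54.

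Cyp26c1, its neighbour (probe set 10462846, Entrez gene 546726), had log2 levels of 11.17, 11.22 and 11.72 in Tbx1 null, against 12.06, 11.01 and 11.37 in wild type. Both the highest and the lowest array were wild type, and Tbx1 null replicate 3 stood above the other two of its genotype. The means were 11.37 ± 0.30 in Tbx1 null and 11.48 ± 0.54 in wild type (SD, n = 3 each). The change was -0.11 (SE 0.26, 95% confidence interval -0.71 to 0.50, limma adjusted p = 0.944), and it was 0.19 without wild type replicate 1. Leaving out Tbx1 null replicate 1, 2 or 3 gave -0.0074, -0.03 or -0.28, and leaving out wild type replicate 2 or 3 gave -0.34 or -0.16.

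Cyp26b1 (probe set 10545771, Entrez gene 232174) had a within-genotype spread near the middle of all genes (pooled SD 0.072, larger than that of 49.6%). Its log2 levels were 8.20, 8.17 and 8.17 in Tbx1 null, against 8.15, 8.14 and 7.97 in wild type. All Tbx1 null arrays were above all wild-type arrays, by 0.022 at the nearest pair, but the genotypes overlapped after another quantile normalisation or after centring on the median. The change was 0.10 (95% confidence interval -0.04 to 0.23, limma adjusted p = 0.675), and it was 0.04 without wild type replicate 3.

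**Figure D3:**
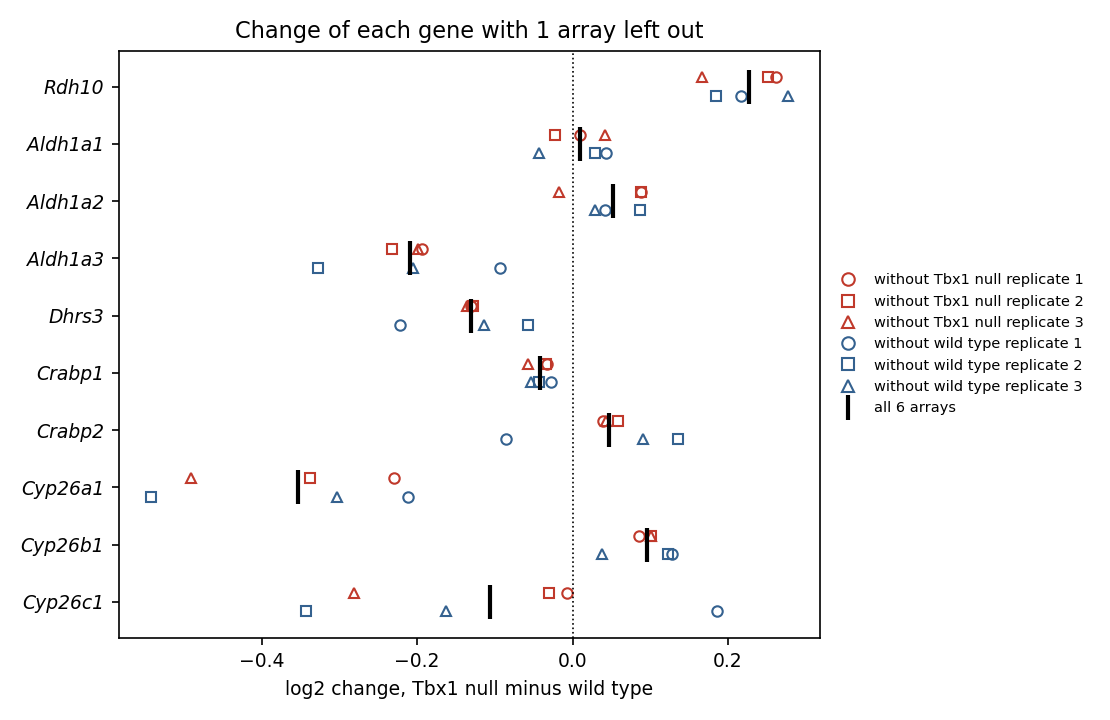
Log2 change of each gene, Tbx1 null minus wild type, with all 6 arrays (black bars) and with each array left out (open symbols, red for a Tbx1 null array and blue for a wild-type array). Rdh10 stays above 0 throughout, while Cyp26c1 and Crabp2 change sign without wild type replicate 1.

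The spread within a genotype differed widely among the 10 genes. Cyp26c1 had a pooled SD of 0.44, larger than that of 99.8% of all genes, and Cyp26a1 one of 0.30, larger than that of 99.5%. Aldh1a3 and Crabp2 followed with 0.17 each, larger than 95.4% and 95.2% of genes. Crabp1 was at the other end with 0.027, larger than that of 5.86%. Within wild type, replicate 1 was the highest array for Cyp26c1, Cyp26a1 and Aldh1a3 and the lowest for Crabp2 and Dhrs3. Over all genes, wild type replicate 3 had the largest median absolute deviation from its genotype mean (0.0551), followed by wild type replicate 1 (0.0504). On wild type replicate 1 the mean log2 level of the 5 markers of neural tube and ganglia was 8.61, against 8.22 and 8.32 on wild type replicates 2 and 3. Sox10, a gene of neural crest and its glia, differed most among them, with 10.21 against 8.87 and 9.16, while Sox2 (10.49, against 10.45 and 10.55) and Elavl4 (7.06, against 7.10 and 7.13) were not raised there. The mean of the 7 mandibular mesenchyme markers was 11.86 on wild type replicate 1, against 11.98 and 12.01. Hand2 (10.45, against 11.03 and 11.10) and Msx1 (10.63, against 10.90 and 11.05) were lowest on that array by the most, while Twist1 (11.91, against 11.85 and 11.88) and Dlx5 (12.92, against 12.86 and 12.81) were highest there. Heart (9.43, against 9.11 and 9.23) and pharyngeal endoderm (8.88, against 8.675 and 8.796) also had their highest wild-type list means on replicate 1. So did core mesoderm, the Hox genes, eye and nasal placode, and somites, while endothelium was lowest there. The part of these differences between wild-type arrays in the values of the retinoic acid genes was not tested.

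Across the 6 arrays the levels of Cyp26a1 and Cyp26c1 had a Pearson r of 0.817 (exact two-sided permutation p = 0.0417) and a Spearman rho of 0.771 (exact permutation p = 0.103). Without the 2 arrays farthest from the median of Cyp26a1, r was 0.64. The deviations from the genotype means had an r of 0.907. Over the 45 pairs among the 10 genes, 3 had an exact p for r under 0.05 and 0 had an adjusted p under 0.05 (Benjamini-Hochberg, lowest 0.5), and this pair's adjusted p was 0.625 for r and 0.892 for rho.

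The genes most like Cyp26c1 over the 6 arrays, among 368 others above the median level with an SD of at least 0.2, were Has2, Phlda2 and Upp1, with r of 0.993, 0.984 and 0.982. Has2 encodes the hyaluronan synthase of embryonic mesenchyme, and its log2 levels were 11.44, 11.41 and 11.88 in Tbx1 null, against 12.09, 11.35 and 11.58 in wild type. The genes most like Cyp26a1 were Plcb4, Uchl1 and Ctsc, with r of 0.976, 0.967 and 0.965. Plcb4 encodes a phospholipase that acts in endothelin signalling of the lower jaw, with log2 levels of 9.42, 9.55 and 9.86 in Tbx1 null, against 10.19, 9.63 and 9.88 in wild type. All of these genes were highest on wild type replicate 1. These r values describe 6 arrays shared by all genes, and the genes named were picked for their high r.

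**Figure D4:**
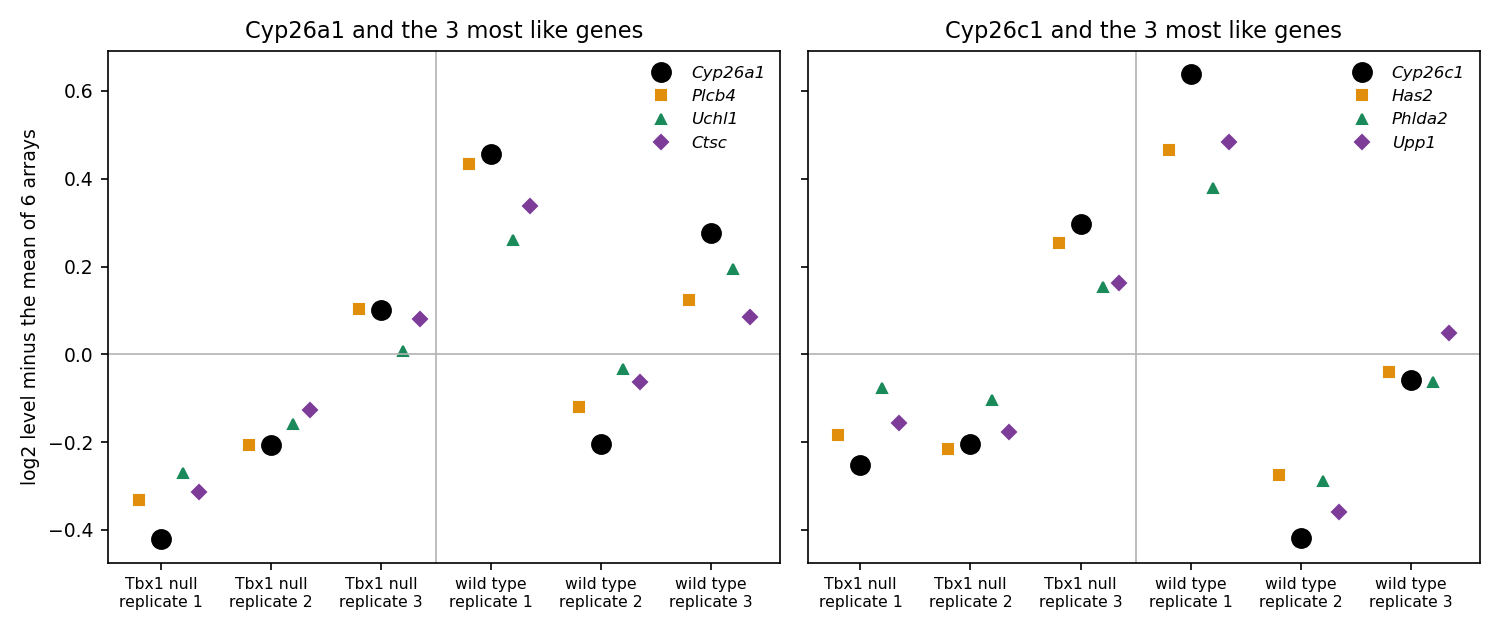
Log2 level minus the mean of the 6 arrays for Cyp26a1 (left) and Cyp26c1 (right), as black points, with the 3 genes whose levels were most like each (coloured symbols), Tbx1 null arrays left of the grey line. All of them are highest on wild type replicate 1, and the genes in the Cyp26c1 panel are lowest on wild type replicate 2.

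Other genes of retinoid handling were read from a list of 54 symbols, of which 49 were analysed. Of these 1 rose, Meis1, and 1 fell, Rxrg, at a limma adjusted p of 0.05, and 47 did not pass. Of all genes 0.0853% were called higher and 0.0752% lower. Before adjustment 8 of 49 were higher and 5 lower at a limma p under 0.05, where 5.5% of all genes were higher and 3.94% lower. The arrays of the genotypes did not overlap for 12 of 49 (24.5%), against 15.4% of all genes. The median log2 change was 0.01, against -0.01 over all genes.

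Of 20 genes of retinoid uptake, storage and retinol oxidation, none passed, and before adjustment 1 was higher and 1 lower at a limma p under 0.05. The higher one was Rdh11, a retinal reductase gene, with log2 levels of 10.21, 10.30 and 10.54 in Tbx1 null, against 9.87, 9.99 and 10.13 in wild type (change 0.36, limma adjusted p = 0.277). The lower one was Rbp4, the retinol carrier of blood, with a change of -0.13 (95% confidence interval -0.24 to -0.0067, limma adjusted p = 0.488). Dhrs4 had a change of 0.09 and Rdh13 of -0.11. Stra6, the membrane receptor for retinol bound to RBP4, had a change of -0.02 (95% confidence interval -0.23 to 0.19).

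Of 10 nuclear receptor and cofactor genes, only Rxrg passed. Rxrg, a retinoid X receptor gene, had log2 levels of 8.10, 7.79 and 7.96 in Tbx1 null, against 8.69, 8.53 and 8.66 in wild type (change -0.68, limma adjusted p = 0.0422). It did not pass with any single array left out (limma adjusted p = 0.0796 to 0.166). Rarb, a retinoic acid receptor gene that retinoic acid itself induces, had 10.30, 10.44 and 10.39 in Tbx1 null, against 10.20, 10.13 and 10.31 in wild type. Its arrays overlapped slightly (change 0.16, 95% confidence interval 0.02 to 0.31, limma adjusted p = 0.449). Rxra had a change of -0.14 and Ncoa2, a coactivator gene, of 0.10 (limma adjusted p = 0.47 and 0.568).

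Of 21 genes known to respond to retinoic acid in embryos or cells, 1 rose and 0 fell. The list was chosen with earlier results of these data known and does not separate genes that retinoic acid raises from those it lowers. The counts of its higher and lower genes therefore give no direction of a retinoic acid response. Before adjustment 7 of 21 were higher and 2 lower at a limma p under 0.05, beside 5.5% and 3.94% of all genes. The changes of 15 of 21 lay above 0, beside 46.5% of all genes. Among the 15, Hoxb4, Cdx2 and Egr1 lay just above 0 (0.013, 0.015 and 0.0064). Median centring moved the median change of all genes from -0.00607 to -0.0326, so the signs of such small changes depend on the scaling. Meis1, a homeodomain partner of Hox proteins, rose by 0.46 (limma adjusted p = 0.0374), and passed with wild type replicate 3 left out but with none of the other arrays (limma adjusted p = 0.0873 to 0.17). Hoxb2 and Hoxa2, Hox genes of the hindbrain and second arch, had changes of 0.63 and 1.11 (limma adjusted p = 0.0577 and 0.126). Isl1, a gene of heart progenitors and core mesoderm, had a change of 0.36. Tbx5 and Rarres2 were also higher before adjustment, with changes of 0.45 and 0.24 (limma adjusted p = 0.392 and 0.4). Hoxb1, Hoxa3 and Hoxb4 had changes of 0.09, 0.04 and 0.01. The 2 below an unadjusted limma p of 0.05 on the lower side were Gbx2, a gene of the anterior hindbrain, with a change of -0.41, and Hoxd4, with -0.14 (limma adjusted p = 0.482 and 0.505). Hoxd4 and Hoxa3 had mean levels of 6.59 and 6.13, below the first quartile of 6.81. Whether they were above background could not be judged. Cyp26a1 and Dhrs3, which belong to the same kind of gene but are not among the 21, had changes of -0.35 and -0.13, and neither passed. Rarb, which is among the 21, had a change of 0.16 and did not pass. Rarb and Nrip1 are counted both here and among the receptor and cofactor genes. Hoxa2, Hoxb2 and Isl1 are also among the markers of second arch and heart given above, and what those tissues contributed was not tested.

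**Figure D5:**
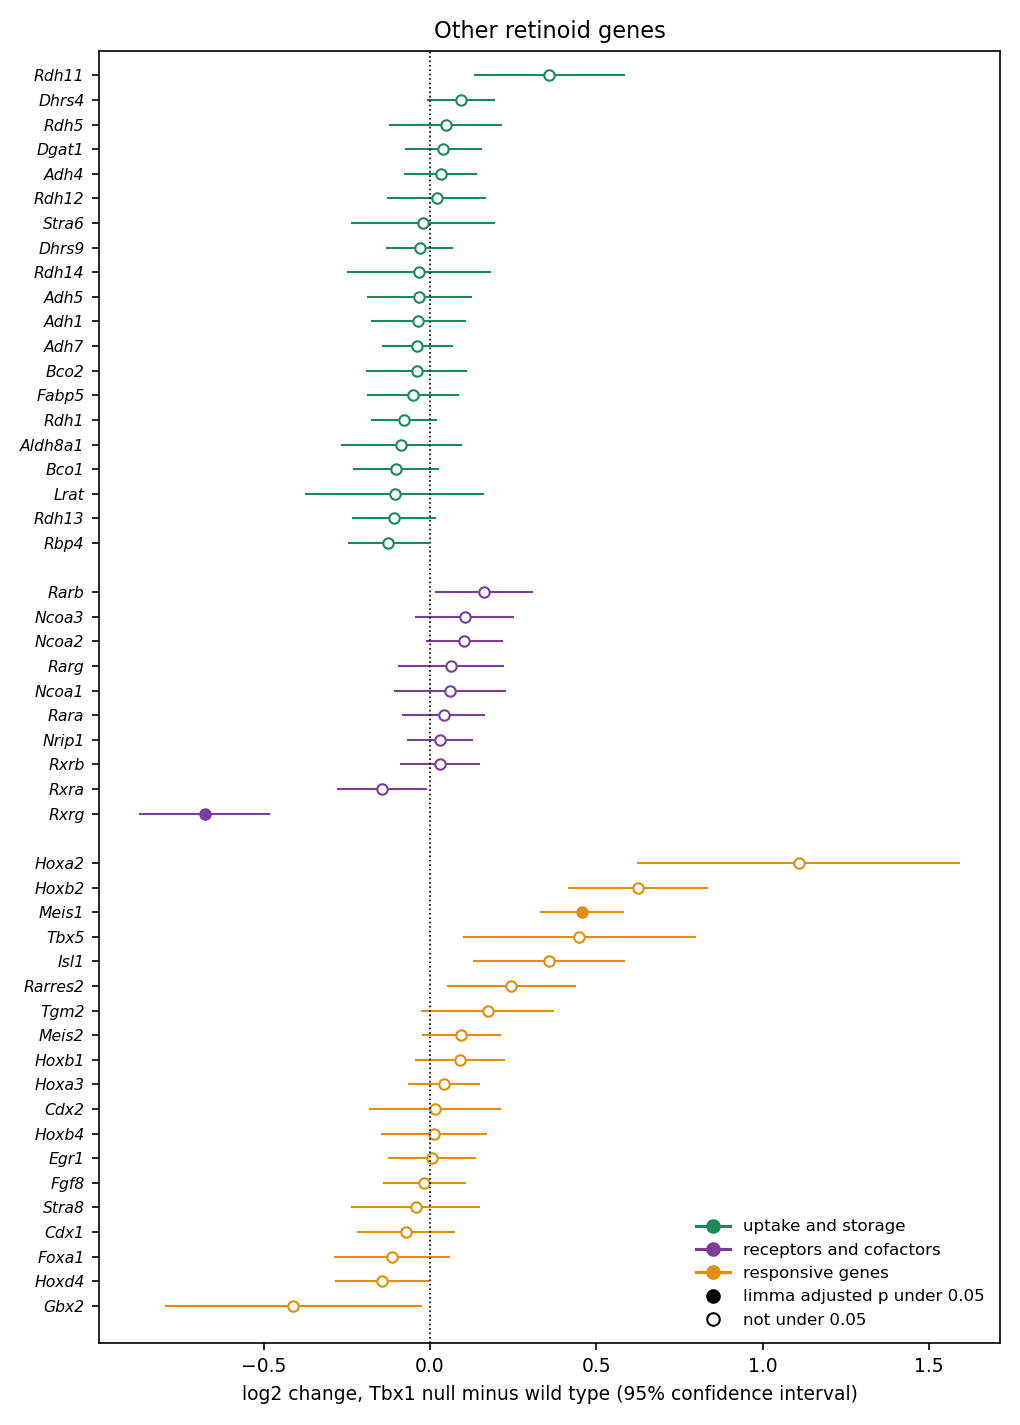
Log2 change, Tbx1 null minus wild type, with 95% confidence intervals for 49 other retinoid genes in 3 groups, uptake and storage, receptors and cofactors, and responsive genes. Filled points passed a limma adjusted p of 0.05, which Meis1 and Rxrg did.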

How the data were processed

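Of the series, all 6 arrays were used. The authors deposited log2 values for each probe set. Per the submitters' processing notes these came from RMA, run in Affymetrix Expression Console 1.1; RMA draws the distributions of the arrays together, which hides any shift common to most genes. That they are log2 was judged by their range (3.63 to 14.6). The sources used here do not give the genome build behind the probe sets. The number of arrays limits the precision (median SE of a change 0.0579).

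Probe sets with 1 symbol in the platform annotation (21789 of 35556) were kept, and each gene was represented by the one with the highest mean over 6 arrays. Genotypes were compared by limma 3.58.1 under R 4.3.3 (two-sided, no covariate), with Benjamini-Hochberg adjustment over 19938 genes at 0.05. Changes are Tbx1 null minus wild type. The fit was also run on simulated data, with independent arrays and variances drawn from its own model. Such data cannot show what shared pools would do to the p-values. No array was a copy of another.

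The members and lists were chosen with earlier results of these data known. The genes named were Tbx1, the 10 members and up to 4 genes of lowest p from each wider list. For members with an SD of at least 0.2 the 3 most like genes were also named. Others (Stra6, further Hox genes, Gbx2, Tbx5, Rarres2, Cdx2, Egr1 and the tissue markers) were named after their values were seen. The other symbols of the wider list are not analysed here, nor are protein sequences. Promoters are from RefSeq, GRCm38.p6. Alternatives were a replicate block, leaving out each array, quantile normalisation again, median centring, filters on dim genes, trend and robust eBayes, array weights, averaged probe sets per gene and every probe set.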

Additional observations from a re-analysis of the deposited data

How the results depend on the processing

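The count of called retinoic acid genes was 0 under all 15 alternatives run, with 1 to 3 genes at an unadjusted limma p under 0.05. The count of all called genes, 32, was 6 with a replicate block, 3 to 20 with an array left out, 96 with trend and robust eBayes, 334 with array weights and 4 over every probe set. The 2 called genes of the wider list became 1 with a replicate block, 0 to 1 with an array left out, 1 without genes below the median level, 4 with array weights and 0 over every probe set. The filter at the median level (8.55) removed Rxrg, whose mean level was 8.29, so Rxrg was not tested there. The causes of the other differences were not tested, but leaving out an array leaves fewer samples and every probe set means more features tested. Tbx1 passed under all 15, with a change of -2.002 to -1.837 when an array was left out and -1.94 with the replicate block.

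Of the 10 genes, 6 kept their direction under every alternative that tested them. Aldh1a1 turned to -0.000588 after another quantile normalisation and -0.017 after median centring, and ranged from -0.044 to 0.043 with an array left out. With array weights Aldh1a2 was -0.034, Crabp2 -0.066 and Cyp26c1 0.087. With an array left out they ranged from -0.018 to 0.088, -0.086 to 0.14 and -0.34 to 0.19. The array weights leaned on wild type replicate 2 (weight 3, against 0.506 and 0.413 for wild type replicates 1 and 3). Those of the Tbx1 null arrays were 0.532 to 1.77. The lowest limma adjusted p of any of the 10 was 0.067, for Rdh10 with array weights.

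Whether the replicate numbers pair the arrays cannot be told from these values. The deviations of same-numbered arrays from their genotype means correlated at -0.0453, 0.26 and 0.149 over all genes (replicates 1, 2 and 3). Tbx1 null replicates 2 and 3 correlated best with the wild-type array of the same number. Tbx1 null replicate 1 correlated best with wild type replicate 2 (0.25). The replicate block changed no call among the 10 genes, but Meis1 and Tbx20 no longer passed with it (limma adjusted p = 0.097 each). Meis1 did not pass over every probe set (0.105), while Rxrg passed with the block (0.045) and not over every probe set (0.132). Tbx20 also missed the threshold after another quantile normalisation (0.0503) and over every probe set (0.132).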

Other observations

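Dhrs3 and Crabp2 had the highest rank correlation of the 45 pairs. Their Spearman rho over the 6 arrays was 0.943 (exact two-sided permutation p = 0.0167, adjusted p = 0.75 over 45 pairs) and their Pearson r was 0.707 (exact permutation p = 0.136, adjusted p = 0.703). Without the 2 arrays farthest from the median of Dhrs3, wild type replicates 2 and 3, r was 0.981. That value rests on wild type replicate 1 (9.15 for Dhrs3, 11.76 for Crabp2). The Tbx1 null arrays spanned only 9.20 to 9.21 and 12.05 to 12.09. For deviations from the genotype means r was 0.985. It rests on the wild-type arrays, with SDs of 0.17 and 0.23, against 0.0071 and 0.020 in Tbx1 null. Aldh1a3 and Cyp26a1 had an r of 0.845 (exact permutation p = 0.0111, adjusted p = 0.5), which was 0.0477 without wild type replicates 1 and 3, so it rests on those arrays. The other 4 arrays lay between 8.18 and 8.25 for Aldh1a3, a narrow range in which to read an r, and the deviations from the genotype means had an r of 0.763. Crabp2 and Cyp26c1 ran opposite ways, with an r of -0.853 (exact permutation p = 0.025, adjusted p = 0.562). This r was 0.122 without wild type replicates 1 and 2, on which it rests, and -0.849 for deviations from the genotype means. The other 4 arrays lay between 12.05 and 12.11 for Crabp2, again a narrow range in which to read an r. No pair passed the adjustment.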
